A study of Mus musculus with 12 samples.

Results

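The 35 interferon-stimulated genes described here were followed in the gastrocnemius muscle of mice that model facioscapulohumeral muscular dystrophy (FSHD). They were chosen by symbol, as named interferon-response genes, from the 37748 genes of the deposited count table, and each symbol matched 1 row. The choice was made with earlier results of these data known. All 35 were among the 16679 genes that passed the filter on low counts and were tested. The members fall into 5 sensors of RNA and DNA, 6 transcription factors, 3 genes of the ISG15 system, 3 IFIT genes, 5 genes of the OAS family, 5 Mx and guanylate-binding GTPases and 8 other effectors.

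The study made FSHD-like mice in which a human DUX4 transgene (FLExDUX4, or FLExD) is switched on in skeletal muscle, and compared global mRNA levels between degrees of severity. The transgene is recombined by MerCreMer (MCM), a Cre that tamoxifen (TMX) activates and that the skeletal actin promoter ACTA1 drives, which gives mosaic DUX4 protein in muscle, while the study also describes a low leak of transgene mRNA in FLExD mice without Cre. Poly(A) RNA of 12 mice, 13 weeks old, was sequenced as 1 library per mouse, with 3 mice in each of 4 groups. Control mice were ACTA1-MCM/+ and FLExD mice were FLExDUX4/+, and neither group received TMX. The labels describe the FLExD samples as mild pathology although their strain carries no MCM, and the treatment text calls the single 5 mg/kg injection the mild model although those samples are described as moderate; groups here follow strain and description. Moderate mice were FLExDUX4/+;MCM/+ and received 1 intraperitoneal injection of TMX at 5 mg/kg. Severe mice had the same genotype and received 10 mg/kg on each of 2 consecutive days. Both models were sampled at day 9. Since no control mouse received TMX, the effect of TMX itself and that of DUX4 cannot be told apart in these comparisons, and in the severe mice dose and number of injections changed together. The table holds no row for the human transgene, so its mRNA was not measured here.

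Interferons are secreted proteins that cells release on sensing foreign or misplaced nucleic acid. Type I interferons bind the receptor IFNAR1/IFNAR2, whose kinases JAK1 and TYK2 phosphorylate STAT2, which joins IRF9 in a complex that binds the interferon-stimulated response element (ISRE) in the promoters of responsive genes. Interferon gamma acts through IFNGR1/IFNGR2, JAK1 and JAK2 and leads to binding at gamma-activated sites (GAS), and it is the main inducer of the guanylate-binding proteins. The products of these genes detect viral RNA, block its translation, cut it or modify cell proteins, and in inflamed or regenerating muscle both infiltrating leukocytes and myofibers can express them.

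The libraries held 23796902 to 29136403 expected counts, the estimated reads per gene. Levels are given as CPM, counts scaled to library sizes that the TMM method of edgeR had adjusted, and 3 counts corresponded to 0.0676 to 0.155 CPM; these floors cover counting error only. Skeletal muscle markers were abundant in the libraries: 7 genes, among them Ckm, Acta1 and Ttn, summed to between 193504 and 262730 CPM in control mice, and to between 22626 and 35087 CPM in severe mice. The TMM factors were 0.706 to 0.724 in control mice, 0.708 to 0.760 in FLExD mice, 1.06 to 1.13 in moderate mice and 1.69 to 1.87 in severe mice, and fold changes depend on this scaling. All of these are bulk samples, in which a change in the number of cells that express a gene and a change in RNA per cell cannot be told apart.

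The promoters of the members were read for the elements through which interferons act. RefSeq promoter windows on GRCm38.p6 (250 bases before to 50 after the start) were found for 27 of the 35 members and searched on both strands for the ISRE core GAAANNGAAA and for the GAS core TTCNNNGAA, which is its own reverse complement. Of the 27 members, 14 (51.9%) held the ISRE core, against 3.99% of all 27025 genes with a window and 3.44% of all 32851 windows. The GAS core was found for 8 members (29.6%), against 9.55% of all genes with a window and 8.3% of all windows. No window was matched for Dhx58, Zbp1, Usp18, Oas2, Mx1, Mx2, Parp14 and Rtp4. One stretch is shown for each role group, from the member with the highest TPM (a level per transcript length) among those that hold the ISRE core; each is written in the direction of transcription with the core, or its reverse complement, in capitals.
Eif2ak2 (chr17:78882545-78882594, minus strand): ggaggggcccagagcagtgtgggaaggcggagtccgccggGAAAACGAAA
Stat2 (chr10:128270248-128270305, plus strand): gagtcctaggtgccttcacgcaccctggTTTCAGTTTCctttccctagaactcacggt
Isg15 (chr4:156200855-156200936, minus strand): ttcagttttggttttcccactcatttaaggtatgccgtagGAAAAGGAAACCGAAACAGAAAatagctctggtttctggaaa
Ifit3 (chr19:34583333-34583436, plus strand): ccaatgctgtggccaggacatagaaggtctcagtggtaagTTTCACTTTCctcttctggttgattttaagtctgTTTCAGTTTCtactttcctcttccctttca
Oas1a (chr5:120907526-120907585, minus strand): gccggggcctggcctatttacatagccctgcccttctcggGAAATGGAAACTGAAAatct
Gbp2 (chr3:142620564-142620633, plus strand): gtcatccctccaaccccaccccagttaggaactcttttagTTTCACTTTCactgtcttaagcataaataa
Bst2 (chr8:71537567-71537642, minus strand): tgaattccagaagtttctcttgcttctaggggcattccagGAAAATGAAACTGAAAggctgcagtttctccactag
Counted from the RefSeq start, the cores began 130 and 124 bases before it at Bst2, 78 to 66 bases before it at Isg15 in 3 overlapping copies, 59 before it at Gbp2 and 20 and 14 before it at Oas1a. Gene positions given below are from GENCODE M21, whose start can differ, as it does for Gbp2. In Stat2, Ifit3 and Gbp2 the stretch holds the reverse complement, and at Eif2ak2 the core lies 18 bases after the start. Such a match is a description of letters and is not a measurement of factor binding. Of the 14 members with the ISRE core in the window, 11 were called higher in moderate and 12 in severe mice, and of the 13 without it 10 and 12 were. Gbp2 and Gbp5 hold it and were called in neither model. The count row of Gbp5 carries another gene identifier than the GENCODE M21 annotation gives that symbol, so its window and its counts may not belong together.

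Most interferon-stimulated genes were higher in both bi-transgenic models, and the severe model held the higher levels. Calls needed an adjusted p below 0.05 (edgeR's quasi-likelihood F-test, Benjamini-Hochberg over 16679 genes) with a log2 fold change of 0.5 or more in either direction. In moderate mice 29 of 35 members were called higher than in controls, 82.9% against a background of 24.4% of all genes tested. Their number called lower was 0, where 17% of all genes tested were, and at an unadjusted p under 0.05 it was also 0, as it was with DESeq2. In severe mice 32 of 35 members were called higher, 91.4% against 32.9% of all genes tested, and 0 lower, against 27.9%, with 0 at an unadjusted p under 0.05 and with DESeq2. The median log2 fold change of the members was 1.03 in moderate and 1.78 in severe mice, against 0.04 and 0.08 over all genes tested. Both comparisons use the same 3 control mice. Because the members were chosen with earlier results of these data known, their shares describe the list. They are not an independent test against the background. The CPM of the moderate mice lay wholly above those of controls for 27 members (77.1%) and those of the severe mice for 34 (97.1%), while groups that do not overlap in either direction were found for 61% and 75% of all genes tested.

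Between the single-transgenic FLExD mice and controls, 0 members were called higher or lower by edgeR, 0 had an unadjusted p under 0.05, and DESeq2 called 0; the background was 0% of genes tested called higher and 0.006% called lower. The members' log2 fold changes ran from -1.05 (Zbp1, SE 0.58) to 0.28 (Usp18, SE 0.26) with a median of -0.09. The groups did not overlap for 4 of 35 members (11.4%), 2 in each direction, against 8.6% of all genes tested.

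Directly compared, severe mice had 24 of 35 members called higher than moderate mice, 68.6% against 17.6% of all genes tested, and 1 called lower, where 18.8% of all genes tested were. The groups did not overlap for 30 members (85.7%), against 61.3% of all genes tested, and the median log2 difference was 0.82, against 0.02 over all genes. With library size alone in place of TMM factors, the median log2 fold change of all genes tested rose to 0.65 in moderate and 1.39 in severe mice and to 0.72 between severe and moderate mice. The calls among all genes were then 8764 higher and 752 lower in moderate mice, against 4072 and 2830 with TMM, and 12580 and 1070 in severe mice, against 5480 and 4648. Between severe and moderate mice they were 9648 and 823, against 2943 and 3139. The members' medians with that scaling were 1.64, 3.09 and 1.52, each above the median of all genes, and 34, 35 and 34 members were called higher.

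**Figure D1:**
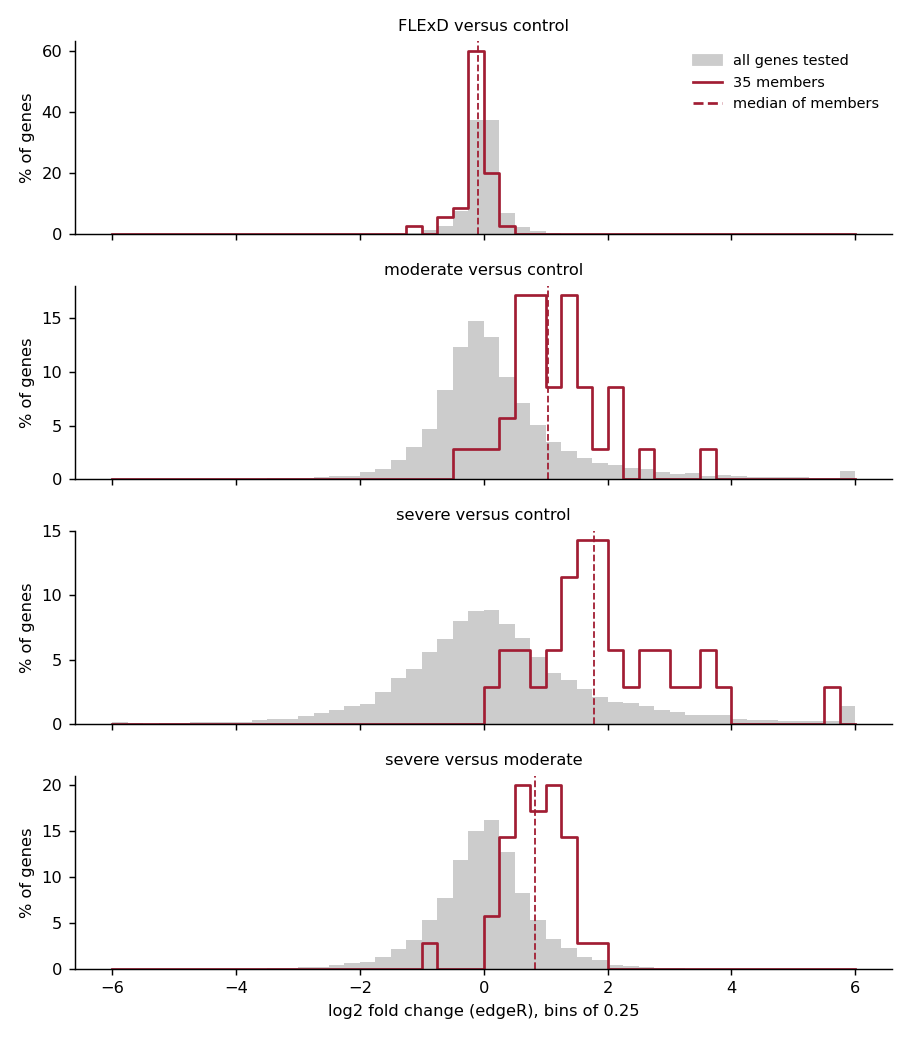
Share of genes (%) by log2 fold change in bins of 0.25 for all 16679 genes tested (gray bars; values beyond the axis are gathered in the end bins) and for the 35 members (red line), with the members' median dashed. The members' median is at -0.09 for FLExD mice against control, and at 1.03, 1.78 and 0.82 in the other panels, where all genes center near 0.

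**Figure D2:**
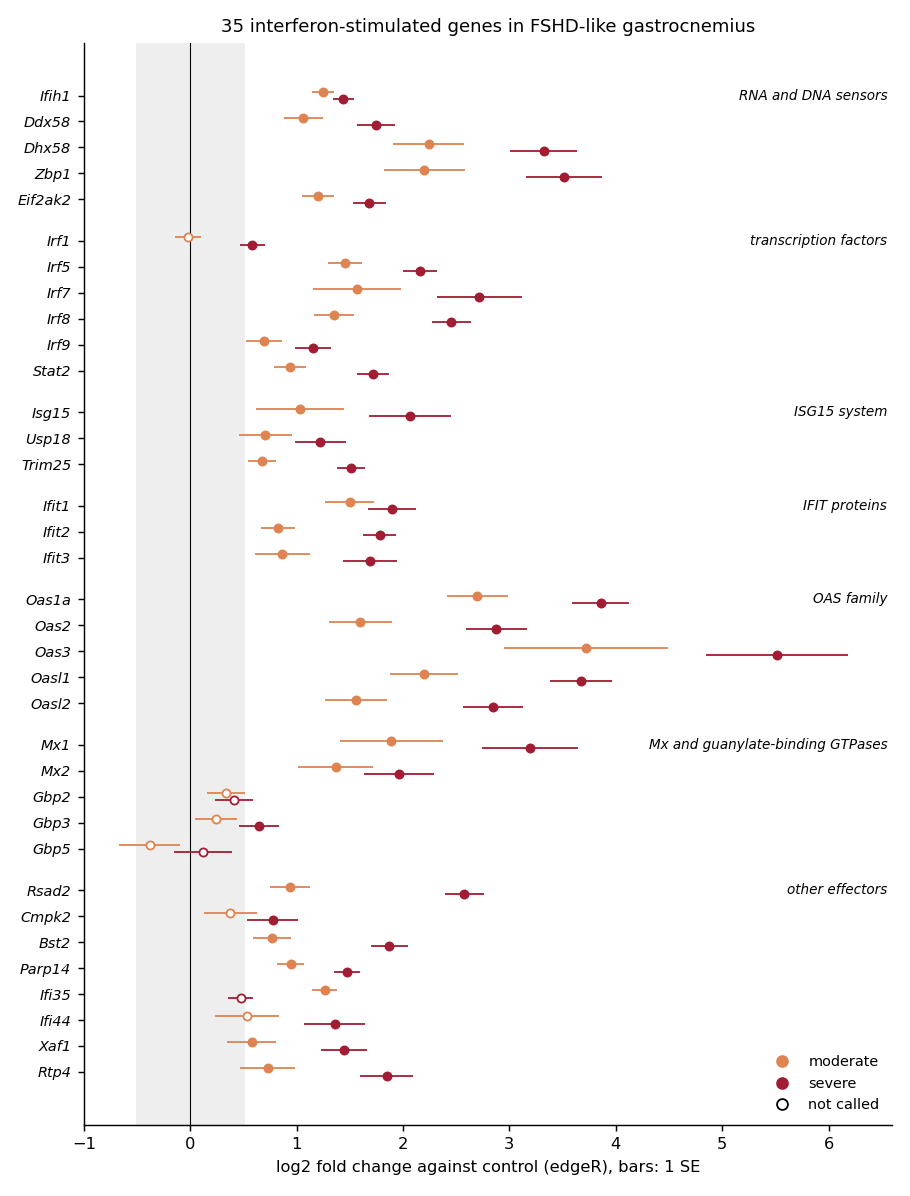
Log2 fold change against control of each of the 35 members in moderate (orange) and severe (red) mice, n = 3 per group, with bars of 1 SE and open circles for values that were not called; the gray band spans the fold threshold. The OAS family reaches furthest, and open circles mark Gbp2 and Gbp5 in both models, Irf1, Gbp3, Cmpk2 and Ifi44 in moderate and Ifi35 in severe mice with TMM scaling; with library size alone all of these are called except Gbp5 in moderate mice.

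Among the sensors, all 5 members were called higher in both models. Ifih1 (chr2:62595798-62646255), whose product MDA5 detects long double-stranded RNA, was at 8.81, 7.03 and 7.25 CPM in control mice, 7.82, 7.93 and 7.96 in FLExD mice, 19.5, 18.4 and 16.9 in moderate mice and 22.2, 19.98 and 20.4 in severe mice. Both models stood clear of both single-transgenic groups, and severe mice lay only just above moderate mice. Its log2 fold change was 1.25 ± 0.10 (SE; adjusted p = 2.39e-07, edgeR) in moderate and 1.44 ± 0.10 (adjusted p = 1.5e-08) in severe mice, and the difference of 0.19 ± 0.09 between them was not called (adjusted p = 0.11).

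Ddx58 (RIG-I, a sensor of RNA with a free triphosphate end) behaved more gradually, at 4.46, 6.50 and 4.60 CPM in control mice, 5.81, 6.25 and 5.59 in FLExD mice, 13.5, 10.965 and 8.03 in moderate mice and 18.9, 17.3 and 15.97 in severe mice. The 2 models did not overlap, and its log2 difference between them was 0.68 ± 0.17 (SE; adjusted p = 0.00353, edgeR). Dhx58 (LGP2, a regulator of both sensors), Zbp1 (a sensor of Z-form nucleic acid linked to necroptosis) and Eif2ak2 (PKR, a kinase that halts translation on binding double-stranded RNA) had log2 fold changes of 2.24, 2.20 and 1.2 in moderate and 3.32, 3.51 and 1.68 in severe mice. Dhx58 and Zbp1 started from low levels, with 23 counts for Zbp1 over the 3 control mice and 558 over the 3 severe mice.

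Of the 6 transcription factors, 5 were called higher in moderate mice and 6 in severe mice. Irf5, which drives inflammatory cytokine genes in myeloid cells, was at 3.89, 4.10 and 3.27 CPM in control, 3.74, 4.71 and 3.18 in FLExD, 11.8, 10.2 and 8.75 in moderate and 18.8, 15.97 and 15.5 in severe mice. The order control and FLExD, then moderate, then severe held with no overlap, and the log2 fold changes were 1.45 ± 0.16 and 2.16 ± 0.16 (SE; adjusted p = 3.9e-06 and 2.14e-08, edgeR). Irf7, the factor that amplifies type I interferon production, rose by 1.57 ± 0.41 and 2.72 ± 0.40 on the log2 scale, and the moderate value was 0.91 without moderate mouse 1236, still called, which widened the step to severe mice from 1.15 to 1.8. Irf8, a factor of macrophage and dendritic cell development, rose by 1.35 ± 0.19 and 2.45 ± 0.18. Irf9 and Stat2, the partners that bind the ISRE, rose by 0.69 and 0.94 in moderate and by 1.15 and 1.72 in severe mice.

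Irf1, a factor induced by both interferon types, differed from the rest of this group. Its CPM were 9.79, 9.06 and 7.68 in control, 9.40, 8.72 and 7.62 in FLExD, 9.87, 7.86 and 8.32 in moderate and 12.7, 13.04 and 13.96 in severe mice. The moderate mice overlapped the controls, with mouse 1236 just above the highest of them, and only the severe mice all stood above the controls. The log2 fold change was -0.02 ± 0.12 (SE; adjusted p = 0.888, edgeR) in moderate mice, with a sign that depends on the scaling (0.59 with library size alone), and 0.58 ± 0.12 (adjusted p = 0.00057) in severe mice; the latter call was lost without control mouse 1349 (0.47). Severe and moderate mice differed by 0.61 ± 0.12 (adjusted p = 0.00072).

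**Figure D3:**
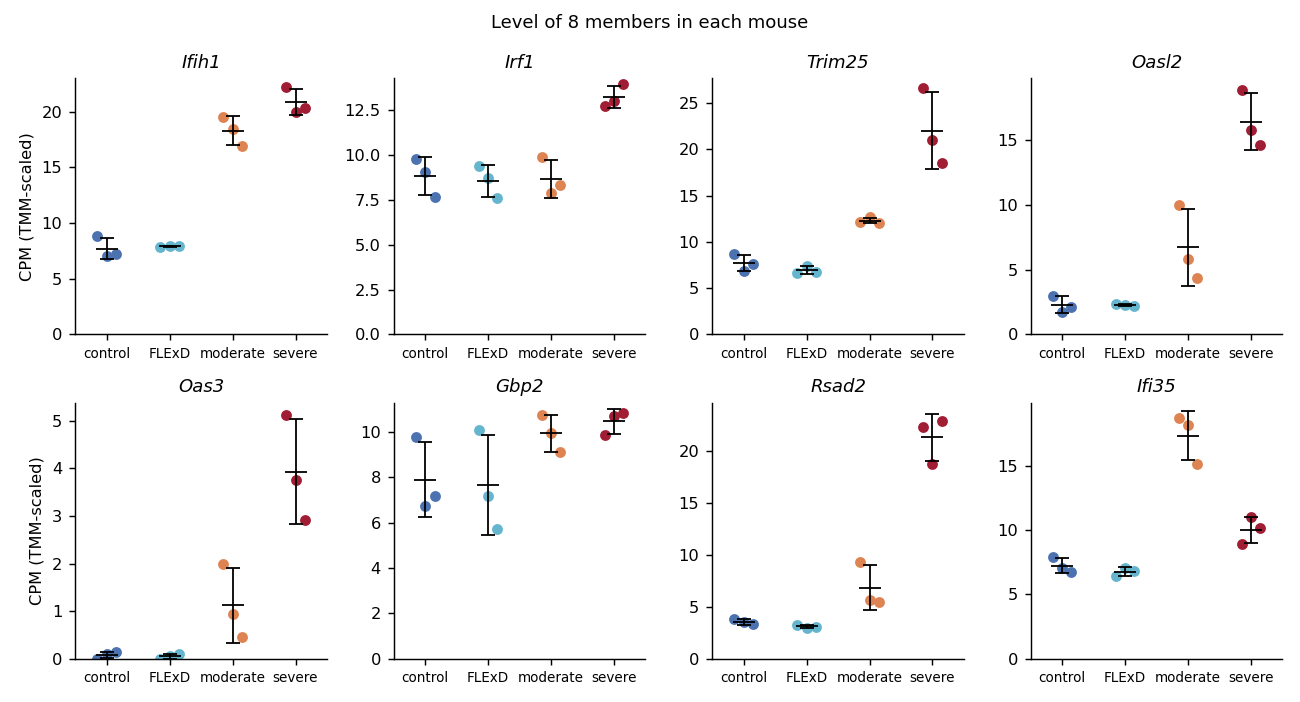
CPM on TMM-adjusted library sizes of 8 members in each mouse (points) with the mean and SD over 3 mice (black), for control, FLExD, moderate and severe mice, each panel starting at 0. With this scaling, Trim25, Oasl2, Oas3 and Rsad2 step up from moderate to severe, Ifih1 is nearly as high in moderate as in severe mice, Irf1 is higher in severe mice alone and Gbp2 shifts little (with library size alone both are called higher in both models), and Ifi35 peaks in moderate mice (its moderate and severe levels are about equal with library size alone).

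The ISG15 system attaches the ubiquitin-like protein ISG15 to other proteins. Trim25, a ligase that also activates RIG-I, was at 8.65, 6.89 and 7.63 CPM in control, 6.59, 7.44 and 6.75 in FLExD, 12.2, 12.7 and 12.1 in moderate and 26.6, 21.0 and 18.5 in severe mice. No model mouse overlapped a control mouse, and the severe mice ranged more widely than the moderate mice. Its log2 fold change was 0.67 ± 0.13 (SE; adjusted p = 0.00072, edgeR) in moderate and 1.51 ± 0.13 (adjusted p = 1.29e-07) in severe mice.

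Usp18, the protease that removes ISG15 and dampens the receptor, was at 1.55, 1.16 and 1.61 CPM in control, 1.67, 1.69 and 1.88 in FLExD, 3.31, 1.76 and 1.96 in moderate and 3.18, 3.23 and 3.70 in severe mice. In the moderate group 1 mouse reached the severe range and the other two stayed near the FLExD mice. Its calls were 0.70 ± 0.25 (SE; adjusted p = 0.026, edgeR) in moderate and 1.22 ± 0.24 (adjusted p = 0.00035) in severe mice. Isg15 itself was low, with a mean of 0.452 ± 0.233 CPM (SD, n = 3) in control, 0.935 ± 0.380 in moderate and 1.92 ± 0.57 in severe mice. Its control and moderate mice overlapped, and the moderate call (1.03 ± 0.42, adjusted p = 0.0491, edgeR) was close to the threshold. The moderate call of Usp18 was lost without control mouse 1127, control mouse 1246 or moderate mouse 1236. That of Isg15 was lost in 9 of the 12 fits that left out 1 mouse and with DESeq2.

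The 3 IFIT genes, whose products bind viral RNA and block its translation, lie near each other on chromosome 19 and all 3 were called higher in both models. Ifit2 (chr19:34550694-34576419) was at 5.23, 4.82 and 3.89 CPM in control, 4.72, 4.96 and 4.48 in FLExD, 10.1, 7.17 and 7.37 in moderate and 18.2, 15.1 and 14.5 in severe mice. Moderate mice lay above all control and FLExD mice, which overlapped each other, and below all severe mice, with log2 fold changes of 0.83 ± 0.16 and 1.78 ± 0.15 (SE; adjusted p = 0.00054 and 1.29e-07, edgeR). For Ifit3 (chr19:34583531-34588731) the CPM were 5.39, 3.37 and 3.18 in control, 3.79, 3.82 and 4.24 in FLExD, 10.4, 6.65 and 4.60 in moderate and 12.4, 13.02 and 12.9 in severe mice.

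The moderate mice were spread over Ifit3's whole range between control and severe, while the severe mice lay close together. Its moderate call (0.87 ± 0.26 SE, adjusted p = 0.0129, edgeR) was lost without control mouse 1246, control mouse 1349 or moderate mouse 1236. Ifit1 rose by 1.498 ± 0.23 in moderate and 1.90 ± 0.23 on the log2 scale in severe mice, and the 2 models differed by 0.40 ± 0.20 (adjusted p = 0.104). Ifit1 and Ifit3 have near copies on the same chromosome, and their expected counts were not whole numbers, as happens where RSEM divides reads between genes.

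The OAS family gave the largest changes, and each of its 5 members was called higher in moderate mice, in severe mice and in severe over moderate mice. These enzymes make the short 2-5A chains that activate RNase L, an RNA-cutting enzyme, while the OAS-like proteins Oasl1 and Oasl2 regulate the antiviral response. Oasl2 (chr5:114896936-114912234) was at 3.00, 1.73 and 2.13 CPM in control, 2.36, 2.28 and 2.22 in FLExD, 10.001, 5.79 and 4.34 in moderate and 18.9, 15.8 and 14.6 in severe mice. Every moderate mouse was above every control mouse and below every severe mouse. Oas2 gave 1.502, 1.40 and 1.09 CPM in control, 1.92, 0.744 and 1.06 in FLExD, 5.24, 3.55 and 3.26 in moderate and 11.7, 9.98 and 7.58 in severe mice, the same order with no overlap.

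Oas3 (chr5:120753098-120777661) was nearly absent from single-transgenic muscle, at 0, 0.0964 and 0.142 CPM in control and 0, 0.0496 and 0.0964 in FLExD mice, which is at most 3 counts in any of these mice. It reached 1.99, 0.931 and 0.457 CPM in moderate and 5.12, 3.75 and 2.92 in severe mice. The summed counts were 5 in control, 104 in moderate and 507 in severe mice, which gives ratios of 13.9 (95% exact interval 5.78 to 43.8) and 48.4 (20.6 to 149.6) for counting error alone. Fitted log2 fold changes in edgeR were 3.72 ± 0.77 (SE; adjusted p = 0.00115) and 5.52 ± 0.67 (adjusted p = 5.94e-06). With limma on log2(TPM + 1) the moderate change was 0.41, under the fold threshold. At mean TPM of 0.107 in control and 0.483 in moderate mice, the added 1 itself keeps that value small. The moderate value was 3.02 without moderate mouse 1236 and 4.36 without control mouse 1349, and the severe value 6.17 without the latter, all still called, while the step from moderate to severe widened from 1.79 to 2.5 without moderate mouse 1236. Oas1a rose by 2.70 ± 0.28 and 3.86 ± 0.27, Oasl1 by 2.20 ± 0.32 and 3.67 ± 0.29, and Oasl2 by 1.56 ± 0.29 and 2.85 ± 0.28 on the log2 scale in moderate and severe mice. Oas1a belongs to a cluster of near-identical Oas1 genes, so the share of reads it received depends on how RSEM divided them.

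Mx1 and Mx2, genes of the dynamin-like Mx GTPase family, rose by 1.89 ± 0.48 and 1.36 ± 0.35 on the log2 scale in moderate mice and by 3.19 ± 0.45 and 1.96 ± 0.33 in severe mice. Of the guanylate-binding proteins, large GTPases that attack the membranes of pathogens and their vacuoles, 0 of 3 were called in moderate mice and 1 of 3 in severe mice by edgeR. Gbp2 (chr3:142620602-142638008) was at 9.79, 6.74 and 7.16 CPM in control, 10.1, 7.19 and 5.74 in FLExD, 10.7, 9.97 and 9.10 in moderate and 9.85, 10.7 and 10.8 in severe mice. The severe mice stood above the controls by a narrow margin, with a log2 fold change of 0.41 ± 0.18 (SE; adjusted p = 0.0514, edgeR).

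Gbp3 gave 6.79, 4.10 and 5.50 CPM in control, 6.59, 4.56 and 5.01 in FLExD, 8.08, 5.65 and 5.61 in moderate and 9.02, 8.61 and 7.95 in severe mice. Only its severe mice lay above all controls (0.65 ± 0.19 SE, adjusted p = 0.0078, edgeR), and that call was lost without control mouse 1246. The row named Gbp5 averaged 3.55 ± 1.43 CPM (SD, n = 3) in control, 2.71 ± 0.19 in moderate and 3.85 ± 0.62 in severe mice. Its log2 fold changes of -0.38 ± 0.28 and 0.12 ± 0.27 did not pass. Without control mouse 1246 the moderate value was called lower, and with library size alone its sign turned to 0.22. This row carries another gene identifier than the GENCODE M21 annotation gives Gbp5, so its counts may belong in part or whole to another gene. With library size alone Gbp2 and Gbp3 passed in both models and Gbp5 in severe mice, and Gbp2 in severe mice passed also without control mouse 1127 (0.58, adjusted p = 0.0136, edgeR).

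Among the 8 other effectors, 6 were called higher in moderate and 7 in severe mice. Parp14, an ADP-ribosyltransferase, was at 15.96, 13.3 and 12.8 CPM in control, 15.0, 11.9 and 12.2 in FLExD, 30.5, 26.3 and 23.9 in moderate and 43.2, 37.6 and 35.8 in severe mice. The 3 levels were clearly separate, with log2 fold changes of 0.94 ± 0.13 and 1.47 ± 0.12 (SE; adjusted p = 2.23e-05 and 9.6e-08, edgeR). Rsad2 (viperin, an enzyme that makes a chain-terminating nucleotide) had the largest called step from moderate to severe after Oas3, 1.64 ± 0.17 (adjusted p = 5.2e-06), at means of 3.59 ± 0.29 CPM (SD, n = 3) in control, 6.85 ± 2.19 in moderate and 21.4 ± 2.27 in severe mice. Bst2 (tetherin, which holds budding virus on the cell surface), Xaf1 (a pro-apoptotic protein) and Rtp4 (a chaperone of cell surface receptors) rose by 0.77, 0.58 and 0.73 in moderate and by 1.87, 1.44 and 1.84 in severe mice on the log2 scale. The moderate call of Rtp4 was lost without control mouse 1246, control mouse 1349 or moderate mouse 1236, and that of Xaf1 in 9 of the 12 fits that left out 1 mouse and with DESeq2.

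Cmpk2, a nucleotide kinase whose gene lies beside Rsad2 on chromosome 12 and is transcribed away from it, was at 3.37, 3.04 and 3.56 CPM in control, 3.79, 2.92 and 2.60 in FLExD, 6.44, 3.52 and 2.94 in moderate and 5.43, 5.64 and 5.97 in severe mice. A single moderate mouse exceeded the severe mice while the other two overlapped the controls. Its log2 fold change passed in severe mice (0.77 ± 0.24 SE, adjusted p = 0.0105, edgeR) and not in moderate mice (0.38 ± 0.25, adjusted p = 0.221), and without moderate mouse 1236 the moderate value was -0.04. Ifi44, a cytoplasmic protein induced by type I interferon, showed 1.24, 0.723 and 0.948 CPM in control, 0.640, 0.644 and 0.579 in FLExD, 1.92, 1.17 and 1.11 in moderate and 3.13, 2.45 and 1.86 in severe mice. Moderate mice overlapped both neighbors, and the call was made in severe mice only (1.36 ± 0.28, adjusted p = 0.00065); the moderate value was 0.54 ± 0.30 (adjusted p = 0.149).

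Ifi35 (chr11:101448407-101458698), a leucine zipper protein of the interferon response, was the only member with more in moderate than in severe mice under TMM scaling. Its CPM were 7.88, 7.03 and 6.78 in control, 6.44, 7.09 and 6.80 in FLExD, 18.7, 18.2 and 15.2 in moderate and 8.93, 10.99 and 10.1 in severe mice. All moderate mice lay above all severe mice, and all severe mice above all controls. The moderate change was 1.26 ± 0.12 (SE; adjusted p = 6.75e-07, edgeR), the severe change 0.47 ± 0.12 (adjusted p = 0.0022, under the fold threshold), and the severe minus moderate difference -0.79 ± 0.11 (adjusted p = 4.8e-05). That call rested on the scaling: the difference was -0.10 with library size alone (adjusted p = 0.435) and -0.06 with limma on log2(TPM + 1) (adjusted p = 0.68), while it kept its call with each of the 12 mice left out. The severe change itself was called with those settings (1.77 and 1.48) and without control mouse 1127 or severe mouse 1047. Exons of Ifi35 overlap those of an annotated gene on the opposite strand, Gm11626, and without strand information reads from the 2 cannot be told apart.

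Seen across the members, 28 were called higher in both models, 4 in severe mice only (Irf1, Gbp3, Cmpk2 and Ifi44), 1 in moderate mice only (Ifi35) and 2 in neither (Gbp2 and Gbp5). Of the 28, 22 were also called higher in severe than in moderate mice. The other 6, namely Ifih1, Eif2ak2, Irf9, Usp18, Ifit1 and Mx2, had differences between the models of 0.19 to 0.60 on the log2 scale. Eif2ak2 (0.48, adjusted p = 0.0097, edgeR) and Irf9 (0.46, adjusted p = 0.0267) fell short of the fold threshold alone.

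Single mice differed within the moderate group. Moderate mouse 1236 had the highest CPM of its group for 34 of 35 members, the exception being Trim25, and mouse 1331 the lowest for 27. The members' summed level was 289.7 CPM in mouse 1236, 224.7 in mouse 1308 and 198.7 in mouse 1331, while summed leukocyte and macrophage markers were 596, 470.2 and 535 CPM and summed muscle markers 87164, 109840 and 105147 CPM in the same order. The part of these in the spread of the members was not tested. Without mouse 1236 the count of members called higher in moderate mice fell from 29 to 24 and that in severe over moderate mice rose from 24 to 30. In the severe group mouse 1047 had the highest level for 27 members, and in control and FLExD mice no mouse was highest for more than 21 and 16.

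Per length, the members were modest transcripts. Bst2 had the highest mean TPM over the 12 mice, from 6.98 in control to 16.5 in moderate and 58.6 in severe mice, followed by Ifi35, which went from 5.87 to 19.1 and 18.3 TPM. TPM values carry no TMM factor, so changes on this scale are not those of the CPM. Mx2 and Oas3 had the lowest mean TPM over the 12 mice and reached 1.54 and 2.42 TPM in severe mice.

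Interferon mRNA itself was at or near 0. Of 21 interferon genes listed, 17 were in the table and 0 passed the filter on low counts. For 8 of the 17 no mouse had a count, and the summed expected counts of all of them were 0.09 to 0.51 per mouse in control and FLExD mice, 2.48 to 8.49 in moderate and 6.32 to 17.75 in severe mice. Ifnb1, the type I interferon most tissue cells make, had 2 counts in 1 mouse and 0 in the rest, and Ifng, made by T and NK cells, had 19 counts over 4 mice. Ifnk had 15 counts over 5 mice, so Ifng and Ifnk held most of the ligand counts. The sums of moderate mice 1236 and 1308, 2.48 and 2.49, lay under 3 counts. Single ligands were too low for the fit across all genes. The summed level averaged 0.0125 CPM in control, 0.0144 in FLExD, 0.147 in moderate and 0.25 in severe mice, and every mouse of both models lay above every control and FLExD mouse. Against controls, a two-sided exact permutation test of the sum gave p = 0.1 for each model, the smallest that 3 mice against 3 allow, and p = 0.7 for FLExD mice; severe and moderate mice overlapped (exact p = 0.5).

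Of 10 receptor and JAK-STAT genes in the table, 4 were called higher and 2 lower in moderate mice, and 7 higher and 2 lower in severe mice. Over all genes tested, 24.4% were called higher and 17% lower in moderate mice, and 32.9% and 27.9% in severe mice. Il10rb, a shared chain of the lambda interferon and IL-10 receptors, rose from 4.59 to 9.22 and 17.3 CPM, and Ifnar2, a chain of the type I receptor, from 5.58 to 11.5 and 19.5 CPM. In the opposite direction, Jak2 and Ifngr2, a kinase and a chain of the interferon gamma receptor, fell from 68.1 to 34.4 and 26.8 CPM and from 70.1 to 42.6 and 29.6 CPM. The log2 fold changes of these 2 genes were -0.98 and -0.72 in moderate mice and -1.35 and -1.24 in severe mice, each called, but with library size alone none of these was called (-0.38 and -0.11, then -0.04 and 0.06), while 7 of the 10 genes were called higher in moderate and 8 in severe mice. With that scaling 8764 and 12580 of all 16679 genes tested were called higher.

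Nucleic acid sensing and relay genes were higher for 11 of 15 genes in moderate and 12 of 15 in severe mice, with 0 (also 0 at an unadjusted p under 0.05 and with DESeq2) and 1 lower. The largest severe changes were those of the endosomal receptors Tlr8, Tlr7 and Tlr9 (4.25, 3.84 and 3.63 on the log2 scale) and of the kinase Ikbke (3.30). The adaptor Mavs, on which RIG-I and MDA5 signal, was the 1 gene called lower (-0.71 in severe mice, adjusted p = 0.00127, edgeR), and with library size alone it was called higher (0.59). Among 12 negative regulators 6 were higher in moderate and 5 in severe mice and 0 lower by edgeR and by DESeq2, with 1 lower at an unadjusted p under 0.05 in each model, led in severe mice by Ptpn6 (3.63), Socs3 (2.12), Adar (1.89) and Samhd1 (1.38). With TMM scaling 24.4% of all genes tested were called higher in moderate and 32.9% in severe mice, and 17% and 27.9% lower. The 5 of 12 negative regulators in severe mice lie near the 32.9%. With library size alone 10 of these 12 were called higher in moderate and 12 in severe mice, and likewise 15 and 15 of the sensing genes. The counts over all 16679 genes tested were then 8764 and 12580.

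The immunity-related GTPases and further guanylate-binding proteins, which interferon gamma induces for the most part, had medians near 0. Of 12 tested, 1 was higher and 2 lower in moderate mice, and 3 higher and 1 lower in severe mice, with medians of -0.08 and 0.11 on the log2 scale. The shares over all genes tested were 24.4% higher and 17% lower in moderate mice, and 32.9% and 27.9% in severe mice. In moderate mice Iigp1 was higher (1.54) and Gbp4 and Gbp6 were lower (-1.28 and -0.80), and in severe mice Gbp8, Ifi47 and Iigp1 were higher (2.72, 2.02 and 1.79) and Tgtp1 lower (-1.24). These lower calls were lost with library size alone, where 5 of the 12 were called higher in moderate and 9 in severe mice and 0 lower, by edgeR and also at an unadjusted p under 0.05. Of all 16679 genes tested, 8764 and 12580 were called higher with that scaling, so these counts do not set the GTPases above other genes. A further 33 interferon-induced genes outside the members were also chosen with earlier results of these data known. They gave 26 higher and 0 lower in moderate and 30 higher and 0 lower in severe mice by edgeR. At an unadjusted p under 0.05 and with DESeq2, 0 were lower, and the medians were 1.06 and 1.62. Cxcl10, a T cell attracting chemokine, had the largest severe change of these (3.84), followed by Oas1g (3.54), Epsti1 (3.01) and Slfn8 (2.92).

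**Figure D4:**
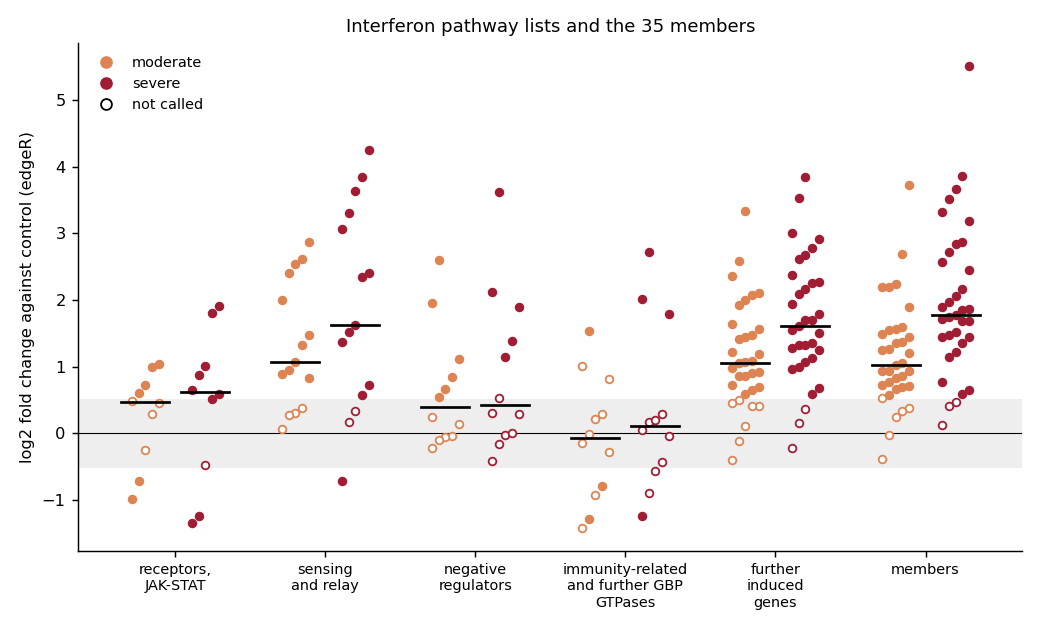
Log2 fold change against control of each tested gene in 5 interferon pathway lists and in the members, for moderate (orange) and severe (red) mice, with open circles for values not called, black lines for medians and a gray band for the fold threshold. The sensing genes and further induced genes have medians near those of the members (1.07 and 1.63, 1.06 and 1.62, 1.03 and 1.78), while the immunity-related and further guanylate-binding GTPases center near 0 (-0.08 and 0.11) with TMM scaling, and at 0.54 and 1.41 with library size alone. The medians of all genes tested were 0.04 and 0.08 with TMM scaling and 0.65 and 1.39 with library size alone, so the GTPases lay near them under both.

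Pan-leukocyte and macrophage markers moved with the members, while other leukocyte lists differed. The 9 pan-leukocyte and macrophage markers were all called higher in both models, and their summed level was 106 to 132 CPM in control, 103 to 121 in FLExD, 470.2 to 596 in moderate and 1076 to 1145 in severe mice. That is a ratio of group means of 4.55 and 9.40 to control, where the members' summed level had ratios of 1.90 and 3.11. The monocyte sum had ratios of 5.05 and 7.08 and the neutrophil sum 2.64 and 4.03. The B cell sum had ratios of 0.883 and 0.657, from genes too low to be tested. Dendritic cell markers summed to 10.4 to 11.5 CPM in control, 19.5 to 24.8 in moderate and 30.7 to 34.5 in severe mice, and nearly all of that rise was Itgax, at means of 0.458, 11.3 and 21.5 CPM. Flt3 was also called higher in both models, by 1.89 and 2.57 on the log2 scale (adjusted p = 0.0024 and 6.88e-05, edgeR). Its means were 0.31 CPM in control, 1.16 in moderate and 1.87 in severe mice. Clec9a, at 0.935, 1.68 and 1.09 CPM, was called higher in moderate mice only (0.85, adjusted p = 0.0106, edgeR). The severe level of Clec9a was called below its moderate level (-0.62). Xcr1, too low to be tested, had means of 0, 0.152 and 0.226 CPM, and both models lay above controls. Zbtb46, by contrast, had means between 8.1 and 9.2 CPM and was not called. Markers of plasmacytoid dendritic cells, known as strong producers of type I interferon, summed to 1.78 to 2.28 CPM in control, 1.59 to 2.41 in moderate and 2.15 to 3.00 in severe mice; of its 3 genes Siglech was called lower in moderate mice and Pacsin1 higher in severe mice. T cell markers summed to 0.466 to 0.819 CPM in control and 2.52 to 4.03 in severe mice, and NK cell markers to 0.0964 to 0.379 and 0.802 to 1.19 CPM. Most of the T cell sum in severe mice was Cd4, at a mean of 0.166 CPM in control and 2.68 CPM in severe mice. Cd3d, Cd3e and Cd3g had means of 0, 0.228 and 0.0158 CPM in control and 0.0781, 0.0705 and 0.102 CPM in severe mice. Cd3e thus went the other way, and all of these Cd3 genes were too low to be tested. Cd8a was not called in either model, so the rise of the sum is that of Cd4 for the most part. The summed skeletal muscle markers fell to 0.435 of the control mean in moderate and 0.127 in severe mice. What part of the members' change comes with leukocyte number, and what part with expression in myofibers, was not tested.

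**Figure D5:**
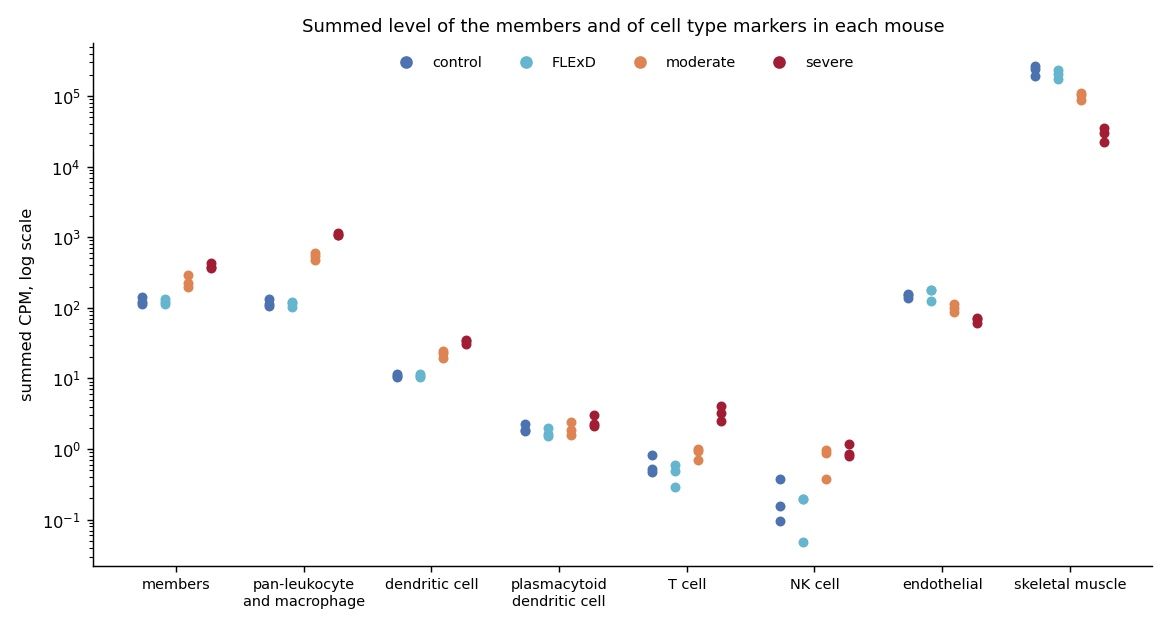
Summed CPM (log axis) of the 35 members and of marker lists for 7 cell types in each of the 12 mice, colored by group. The members and the macrophage markers rise from control and FLExD to moderate and severe mice, as does the dendritic cell sum, nearly all of it through Itgax, the muscle and endothelial markers fall, and the plasmacytoid dendritic cell markers stay between 1.54 and 3.00 CPM.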

How the data were processed

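Gastrocnemius RNA of 12 mice was analyzed. The authors aligned single-end reads of 50 bases through RSEM 1.2.4 and Bowtie against mm10 gene models pooled from UCSC, Ensembl and MISO, passed unaligned reads to TopHat2 2.0.8b, and deposited expected counts without normalization. The authors also deposited TPM values, which carry no factor between libraries. RSEM divides reads that map to several genes, and 21 of 35 members had counts that were not whole (tolerance 0.005) in some mouse. Exons of 3 members overlap another gene on the same strand and those of 9 a gene on the other strand; strand-specific counting is not stated.

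Expected counts were rounded and tested with edgeR 4.0.16 in R 4.3.3 (filterByExpr, TMM, robust quasi-likelihood F-test, 1 fit of 4 groups, Benjamini-Hochberg adjustment over 16679 genes). Calls needed an adjusted p below 0.05 together with a log2 fold change of 0.5 or more in size. The study shared this fold threshold but used a Bayes factor rule on pairs of mice in place of an adjusted p. SE is the size of the log2 fold change over the square root of F. CPM values use library sizes times TMM factors. Depth was 23796902 to 29136403 counts per mouse. For 2 groups of 3 mice the smallest exact permutation p is 0.1, so tests of single genes came from the fit across all genes, and such a test was run only on the summed interferon ligands. Alternatives were library size alone, median-of-ratios factors, DESeq2 1.42.0, limma 3.58.1 on log2(TPM + 1), no filter, at least 10 counts in every library, only the 2 groups compared, a fold threshold of 1 on the log2 scale, no fold threshold and each mouse left out; library size without the 20 genes largest in control mice was chosen after seeing the data. The tests were tried on counts simulated from control proportions, with equal numbers of genes raised and lowered in the severe group. That trial does not cover the differences in TMM factors between the groups, so it says nothing on the choice of scaling.

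Values in every mouse are given for the 2 members of each role group with the highest mean CPM, members called lower anywhere, members called in 1 of moderate and severe mice, and members with at most 3 counts in every mouse of a group. For other pathway lists, up to 4 called genes with the largest change are named, together with the 1 sensing gene called lower (Mavs). Genes that were picked after their values were seen are named as well (Ifnb1, Ifng, Ifnk and single markers). The members and lists were chosen with earlier results of these data known. Positions are from GENCODE M21 on GRCm38, the same assembly as mm10, and promoter sequences from RefSeq on GRCm38.p6. Gene identifiers matched GENCODE M21 for every member except Gbp5. Figures were drawn with matplotlib. One pathway gene is not reported here by name.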

Additional observations from a re-analysis of the deposited data

How the results depend on the processing

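The members' direction held across most settings. Of 29 members called higher in moderate mice, 22 kept their call under all 20 alternatives at the same thresholds that tested them, and Isg15, Usp18, Ifit3, Oas3, Mx2, Xaf1 and Rtp4 lost it under at least 1. Oas3 and Mx2 lost it only with limma on log2(TPM + 1). Their changes there, 0.41 and 0.42, fell under the fold threshold, and at such low TPM the added 1 keeps changes small. For severe mice 30 of 32 kept it (not Irf1 and Gbp3), and for severe over moderate mice 20 of 24 (not Irf7, Isg15, Parp14 and Ifi44). With each mouse left out, the count called higher was 24 to 29 in moderate, 31 to 34 in severe and 20 to 30 in severe over moderate mice; the count called lower was 0 to 1 in moderate mice, where Gbp5 was called without control mouse 1246, 0 in severe mice and 1 in severe over moderate mice. A fold threshold of 1 on the log2 scale left 18 members higher in moderate mice, 14 higher and 0 lower in severe over moderate mice. Ifi35, lower in severe than in moderate mice, was no longer called with library size alone, with limma on log2(TPM + 1) or with library size without the 20 largest genes, so that 0 members were lower. Irf1 in moderate mice turned from -0.02 to 0.59 and was called with library size alone. FLExD mice gave 0 calls in every setting. Low levels limit Oas3, Isg15, Mx2 and Zbp1, and single interferon ligands were too low for the fit across all genes. No paired analysis was possible because no replicate number is shared between groups. The control mice are shared by 3 comparisons, and the cause of the differences between settings was not tested beyond the scaling itself.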
